A study of Homo sapiens with 6 samples.

Results

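The signal recognition particle (SRP) was followed through 9 of its genes, 3 copies of the 7SL RNA gene (RN7SL1, RN7SL2 and RN7SL4P) and the genes of the 6 SRP proteins (SRP9, SRP14, SRP19, SRP54, SRP68 and SRP72). They were chosen by symbol, with their values in this same comparison already known, and all 9 were found among the 56303 genes of the count table. The 6 libraries came from SW480, a cell line from a human colorectal cancer, and 3 carried a control hairpin (shCtrl, genotype WT) while 3 carried a hairpin against MORC2, a chromatin ATPase (shMORC2, genotype MORC2 knockdown). According to the methods, both hairpins were delivered by lentivirus and stable clonal lines were selected with puromycin, and whether the libraries of a group came from 1 clone was not stated. All cells were kept in the same medium with 10% serum, no time after infection was given, and the sequencing was done to find genes spliced under the control of MORC2 and of the splicing factor RBM39. Here the gene counts were compared instead. The 3 libraries of a group were described as independent replicate experiments.

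SRP is the cytosolic particle that binds the signal sequence of a new secretory or membrane protein as it leaves the ribosome, slows translation and brings the ribosome to its receptor on the endoplasmic reticulum. 7SL RNA is its scaffold. SRP9 and SRP14 sit on the Alu domain of the RNA, which slows translation, while SRP19, SRP54, SRP68 and SRP72 sit on the S domain, where SRP54 binds the signal sequence. RNA polymerase III makes 7SL RNA, RN7SL1 and RN7SL2 are its established genes, and the genome holds many further copies, most of them called pseudogenes. The RNA carries no long poly(A) tail and these libraries were made with an mRNA kit, so how far its counts follow its amount in the cell was not tested.

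Total counts ran from 42092664 to 43434425 per library. MORC2 itself stood at 46.1, 46.4 and 48.8 CPM (counts scaled to a common library size with TMM) in shCtrl and at 35.0, 29.3 and 27.2 CPM in shMORC2, a log2 fold change (log2FC) of -0.63 (SE 0.10) with an edgeR adjusted p = 0.000216. All shMORC2 libraries were below all shCtrl libraries. The epithelial markers EPCAM (475 to 540 CPM), KRT8 (12161 to 16794 CPM), VIL1 (597 to 687 CPM) and CDX2 (14.1 to 25.7 CPM) were present in every library. The leukocyte marker PTPRC had at most 6 counts and the fibroblast marker DCN at most 2. Another fibroblast marker, COL1A1 (355 to 458 counts), and the endothelial marker PECAM1 (576 to 860 counts) were counted in every library. The colon marker CDX1 had at most 4 counts. The third shCtrl library stood apart in small RNA genes, as given below, and results that rest on it are given with and without it. Of 21005 genes tested with edgeR's quasi-likelihood test, 39.5% were called at an adjusted p under 0.05, with 19.9% higher and 19.6% lower in shMORC2, without the third shCtrl library 31% of 21663 genes were called, and a fit that added the replicate number (the replicate block) called 49% (24.4% higher and 24.5% lower). All 9 members passed the filter on low counts, and 4 of them fell on the higher side of that call, 3 on the lower side and 2 were not called. These member counts are a description, since the members were chosen on this contrast.

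The 7SL copies were compared first as sequences, read from GRCh38, since they are so alike that reads from them can be hard to place. RN7SL1 lies on the plus strand and RN7SL2 on the minus strand of chromosome 14, and RN7SL4P on the plus strand of chromosome 3. RN7SL5P on the plus strand of chromosome 9 was taken beside them because it had the highest count of the copies outside the members.

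RN7SL2 differed from RN7SL1 by 4 substitutions and by 1 further base at its end. RN7SL4P followed RN7SL1 for its first 232 bases with 6 substitutions, an identity of 97.4%. Of these, 3 were also those of RN7SL2, so that RN7SL4P differed from RN7SL2 by 3 substitutions over that stretch. RN7SL5P followed RN7SL1 for 235 bases with 1 substitution, an identity of 99.6%. Beyond these points the differences crowd together, and identity to RN7SL1 was 47.3% over 74 alignment columns in RN7SL4P and 44.4% over 90 columns in RN7SL5P. Over their whole length the identities to RN7SL1 were 98.3% for RN7SL2, 85.3% for RN7SL4P and 84.3% for RN7SL5P, beside a median of 79.2% over all 679 copies in the annotation of the table.

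**Figure D1:**
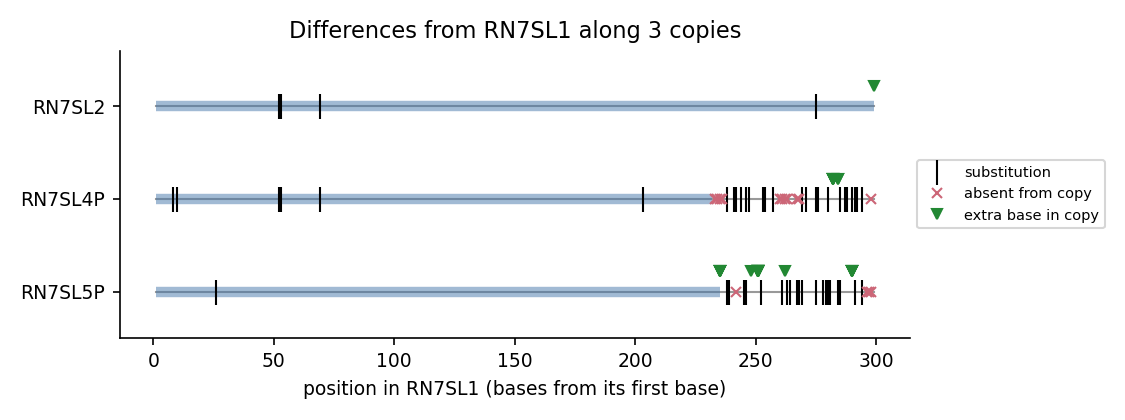
Position of each difference from RN7SL1 along RN7SL2, RN7SL4P and RN7SL5P, with the position in RN7SL1 in bases on the horizontal axis and 1 row for each copy. Lines mark substitutions, crosses missing bases, triangles extra bases and the thick bar the stretch before the first gap. The differences of RN7SL2 are few and scattered, while those of RN7SL4P and RN7SL5P are dense after positions 232 and 235.

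The stretches before RN7SL1 and RN7SL2 are shown because these established genes are known to need upstream elements as well as internal ones. Each line gives the 80 bases before the first base of the copy, in the direction of the gene, with the motif TGACGTCA in capitals. It is the palindrome bound by ATF and CREB proteins.
RN7SL1 upstream: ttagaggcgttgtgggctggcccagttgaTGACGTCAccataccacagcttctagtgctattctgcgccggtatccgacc
RN7SL2 upstream: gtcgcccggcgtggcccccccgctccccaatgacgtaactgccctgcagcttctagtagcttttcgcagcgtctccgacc

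The motif was searched as its exact letters, which read the same on both strands, from 250 bases before the start to 50 bases into the copy. It was found in 1 of 679 copies (0.147%), RN7SL1, where its first base is at position -51 from the start. The stretch before RN7SL2 holds tgacgtaa, which differs from the motif by 1 letter, at nearly the same place. A search for exact letters does not count it. Among RefSeq promoters of the same 300-base length (GRCh38), 649 of 35116 (1.85%) held the exact motif. RN7SL4P carried a run of 12 bases both just before its start and at bases 228 to 239 of the copy. RN7SL5P likewise carried a run of 15 bases before its start and at bases 234 to 248. In both copies the repeated run spans the place where likeness to RN7SL1 ends. The run was searched only around that place and in the last 20 bases before the start, so its nearness to that place was set by the search.

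Sharing of sequence between the copies bears on every count below. Of all 50-base windows of RN7SL1, 19.6% were in no other annotated copy, against 13.5% in RN7SL2, 41.9% in RN7SL4P and 41.2% in RN7SL5P. RN7SL4P shared 58.1% of its windows with RN7SL2, and RN7SL5P shared 58.8% of its windows with RN7SL1. How reads that match several copies were counted was not given in the sources used here, so the split between copies is uncertain, and the counts are those the authors assigned.

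RN7SL1 was counted 268, 283 and 2002 times in shCtrl and 260, 216 and 270 times in shMORC2. The first 2 shCtrl libraries lay beside the shMORC2 libraries and the groups overlapped, while the third shCtrl library was 7.60 times the mean of the first 2 in CPM. The fitted log2FC was -1.82 (SE 0.59) with that library and -0.14 (SE 0.15) without it. In such bulk libraries fewer expressing cells and less RNA in each cell cannot be told apart.

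RN7SL2 was counted 578, 575 and 3738 times in shCtrl and 308, 242 and 300 times in shMORC2. All shCtrl libraries were above all shMORC2 libraries, with the third again 6.79 times the mean of the first 2. The log2FC was -2.57 (SE 0.58), and without the third shCtrl library it was -1.02 (SE 0.13), a level 2.03-fold lower in shMORC2. The count of RN7SL2 divided by that of RN7SL1 in the same library was 2.16, 2.03 and 1.87 in shCtrl and 1.18, 1.12 and 1.11 in shMORC2. This ratio did not overlap between the groups, and in the third shCtrl library it lay near the other shCtrl values although both counts were high there.

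RN7SL4P was counted 761, 684 and 1175 times in shCtrl and 22, 8 and 26 times in shMORC2. The groups lay far apart in every library. In CPM the shCtrl libraries stood at 17.4, 16.2 and 28.6 and the shMORC2 libraries at 0.496, 0.192 and 0.611, so that the third shCtrl library was 1.70 times the mean of the first 2. The log2FC was -5.56 (SE 0.30), and it was -5.26 (SE 0.24) without the third shCtrl library, a mean level 38.7-fold lower in shMORC2. RN7SL4P lies in an intron of ANKRD28, on the opposite strand. ANKRD28 was counted 2154, 1948 and 1821 times in shCtrl and 1919, 1512 and 1403 times in shMORC2, with a log2FC of -0.31 (SE 0.10 and, by edgeR, adjusted p = 0.0237).

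**Figure D2:**
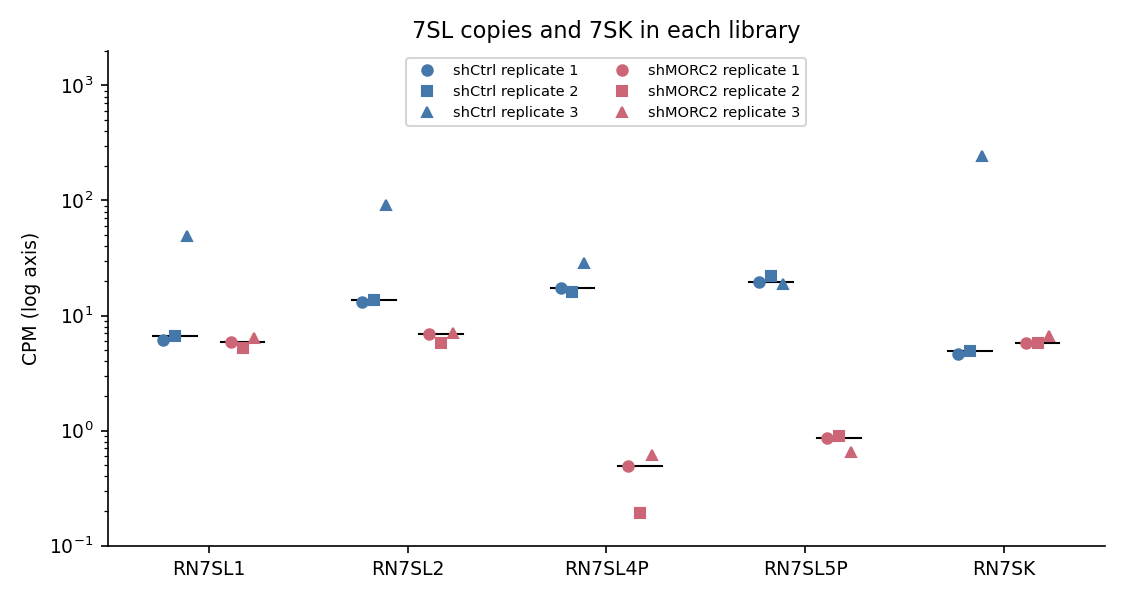
Level of 4 7SL copies and of RN7SK in each library, in CPM on a log axis, with 1 point for each library, shCtrl beside shMORC2 and a horizontal bar at the median of the 3 libraries. RN7SL4P and RN7SL5P fall well below shCtrl in all 3 shMORC2 libraries, and the third shCtrl library is far above the others for RN7SL1, RN7SL2 and RN7SK.

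RN7SL5P, which is no member, gave the like pattern with less weight on the third shCtrl library. It was counted 854, 933 and 775 times in shCtrl and 38, 37 and 28 times in shMORC2, or 20.1 ± 1.70 against 0.801 ± 0.125 CPM (SD, n = 3 each). The log2FC was -4.65 (SE 0.15 and, by edgeR, adjusted p = 2.97e-10), and -4.69 without the third shCtrl library (adjusted p = 1.36e-09). The third shCtrl library stood at 0.907 times the mean of the first 2. RN7SL5P lies in an intron of PTPRD on the opposite strand, and PTPRD itself had at most 2 counts in any library.

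Of the 679 RN7SL copies, 478 had no count in any library and 12 passed the filter, 9 of them outside the members. Of these 9, 2 were called lower and 0 higher, RN7SL5P and RN7SL381P (22.2% called, beside 39.5% of all genes tested). The median log2FC of the 9 was -0.30 beside -0.0056 over all genes tested. The fit with the replicate number as a block called 4 of the 9, where 49% of all genes were called. Over the 198 other copies with a count, DESeq2 called 1, and edgeR with no filter beyond a count above 0 called 6. RN7SL381P was counted 20, 51 and 15 times in shCtrl and 7, 17 and 9 times in shMORC2 (log2FC -1.38, SE 0.51, edgeR adjusted p = 0.0474). It lost its call without the second shCtrl library (-0.67, adjusted p = 0.354), without the first shMORC2 library (-1.12, adjusted p = 0.122) and without the third shMORC2 library (-1.25, adjusted p = 0.150). It was not called by DESeq2 either (adjusted p = 0.0642), nor by limma on log2 RPKM with a pseudocount of 1 (-0.74, adjusted p = 0.0849) or 0.1 (-1.20, adjusted p = 0.0702). RN7SL751P, with 80, 73 and 51 counts in shCtrl and 52, 19 and 54 in shMORC2, was not called (adjusted p = 0.0894), but was with the block (adjusted p = 0.0240). RN7SL589P, with 33, 27 and 18 counts against 15, 16 and 6, missed the threshold narrowly (adjusted p = 0.0538) and passed it with the block (adjusted p = 0.0270). RN7SL608P, which overlaps exons of PAFAH1B1, had 21, 21 and 7 counts against 15, 17 and 9 (adjusted p = 0.684). RN7SL381P lies in an intron of GSE1 on the same strand, itself called lower (log2FC -0.33, edgeR adjusted p = 0.00286). RN7SL589P lies likewise in ZFYVE28 (-0.71, adjusted p = 0.000365) and RN7SL751P in ROBO1 (0.08, adjusted p = 0.444). Whether counts of these copies came from introns of the surrounding genes was not tested.

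The division of all RN7SL counts between copies differed between the groups. RN7SL4P and RN7SL5P together took 55.3%, 54.9% and 24.1% of the family's counts in shCtrl and 6.02%, 5.95% and 5.84% in shMORC2. RN7SL1 and RN7SL2 together took 28.9%, 29.1% and 70.9% in shCtrl and 57.0%, 60.6% and 61.6% in shMORC2. The share of RN7SL4P and RN7SL5P did not overlap between the groups, while for RN7SL1 and RN7SL2 the third shCtrl library lay above the shMORC2 libraries. In CPM the sum of RN7SL4P and RN7SL5P was 40.8 ± 5.74 for shCtrl and 1.23 ± 0.139 for shMORC2, and the copies other than these 4 summed to 10.5 ± 0.681 and 7.15 ± 1.11 (SD, n = 3 each). The 3 members together summed to 80.4 ± 76.0 CPM for shCtrl and 12.8 ± 1.46 for shMORC2, a log2 ratio of -2.65 that was -1.51 without the third shCtrl library.

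**Figure D3:**
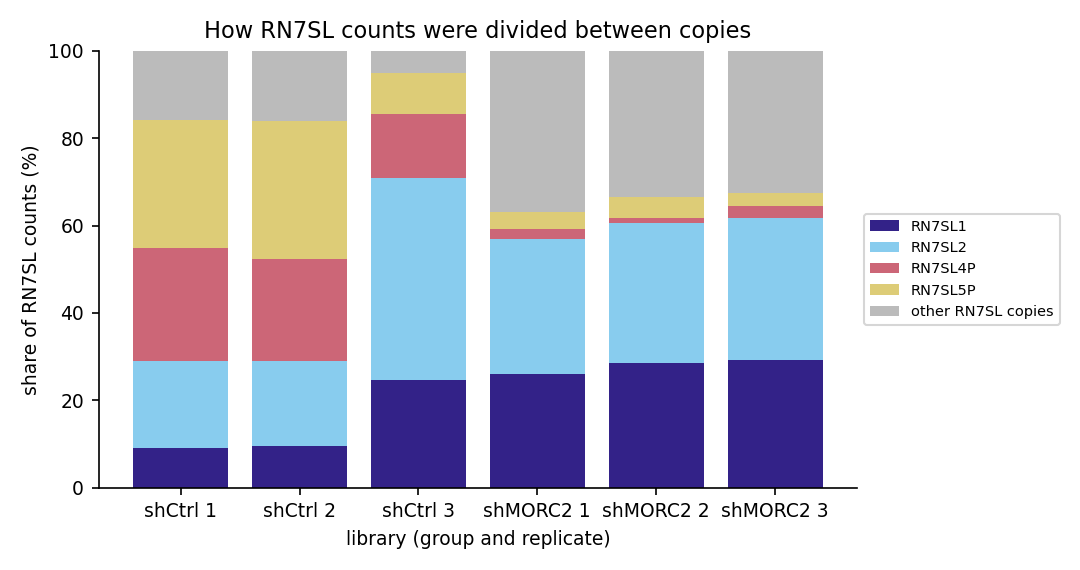
Share of all RN7SL counts, in percent, taken by each copy or group of copies in each of the 6 libraries, as stacked bars. RN7SL4P and RN7SL5P take over 50% in the first 2 shCtrl libraries, 24.1% in the third and about 6% in each shMORC2 library.

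RN7SK, the RNA that holds the elongation factor P-TEFb inactive, stood in the third shCtrl library at 50.4 times the mean of the first 2 in CPM. It was counted 202, 210 and 9924 times in shCtrl and 254, 239 and 281 times in shMORC2, and its log2FC of -3.79 (SE 1.12 and, by edgeR, adjusted p = 0.0160) turned to 0.33 without that library (adjusted p = 0.115). Its call was also lost without the second shMORC2 library (-3.77, adjusted p = 0.0683) or the third (-3.87, adjusted p = 0.0700), and with limma on log2 RPKM at a pseudocount of 1 (-1.55, adjusted p = 0.372) or 0.1 (-1.56, adjusted p = 0.378). The replicate block gave -2.01 (adjusted p = 0.00354), and DESeq2 gave it no adjusted p. Over the 6 libraries, the log2 CPM of RN7SK and of RN7SL1 had a Pearson correlation of 0.991, which rests on the third shCtrl library. DNAJC19 (0.995), CA5BP1 (0.975) and MT-TA (0.971) were also among the genes most like RN7SL1 of 14331 compared, with far smaller ranges, as in the 767 to 852 counts of DNAJC19. These correlations are descriptions over points that share 1 library standing apart.

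The other RNAs made by polymerase III gave 5 genes that passed the filter, of 34 in the table, of which 17 had no count. Of the 5, 3 were called lower and 0 higher (60% called, beside 39.5% of all genes tested), RN7SK among them. Without the third shCtrl library 6 passed the filter, with 2 called lower and 1 higher, and RN7SK was no longer called. The higher one was RNU6-8, a U6 RNA named here after its values were seen, with 4, 2 and 8 counts in shCtrl and 14, 26 and 8 in shMORC2. Its log2FC was 2.38 without that library. RNU6-8 failed the filter with all 6 libraries. It passed without that library only through its shMORC2 counts of 14 and 26, so its call is a description. BCYRN1, a brain cytoplasmic RNA related to Alu elements and hence to 7SL, was counted 88, 121 and 132 times in shCtrl and 22, 44 and 52 times in shMORC2. All its shMORC2 counts were below all its shCtrl counts, with a log2FC of -1.54 (SE 0.29 and, by edgeR, adjusted p = 0.00105) that was -1.39 without the third shCtrl library (adjusted p = 0.00491). RMRP, the RNA of RNase MRP, was counted 32, 26 and 64 times in shCtrl and 6, 0 and 0 times in shMORC2. Its log2FC was -4.29 (SE 0.73), and -3.77 without the third shCtrl library, with a range of -8.35 to -1.93 over all settings. RMRP passed the filter through its shCtrl counts alone, so its call is a description. RPPH1, the RNA of RNase P, had 511, 437 and 589 counts against 443, 477 and 454, with a log2FC of -0.18 (SE 0.12 and, by edgeR, adjusted p = 0.283). Without the third shCtrl library the log2FC of RPPH1 was -0.04 (adjusted p = 0.857). RNU6ATAC, a small RNA of the minor spliceosome, had 6, 4 and 6 counts against 11, 12 and 12 (edgeR adjusted p = 0.0791).

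SRP9, SRP14, SRP19 and SRP54 stood higher in every shMORC2 library than in any shCtrl library, while SRP68 and SRP72 overlapped between the groups. Over all genes tested, 25.1% were higher without overlap and 25.1% were lower, or 50.2% in either direction. The 6 genes summed to 990 ± 63.0 CPM over the shCtrl libraries and 1202 ± 24.4 over those of shMORC2 (SD, n = 3 each), a log2 ratio of 0.28.

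Of the Alu domain pair, SRP9 (chr1:225777813-225790466) stood at 60.0, 47.0 and 55.3 CPM in shCtrl and at 73.9, 67.7 and 70.8 CPM in shMORC2. The log2FC was 0.39 (SE 0.09), and 0.41 without the third shCtrl library. SRP14 (chr15:40035739-40039188) stood at 552, 472 and 559 CPM in shCtrl and at 686, 733 and 710 CPM in shMORC2. Its log2FC was 0.43 (SE 0.08), and 0.47 without that library. The third shCtrl library was in no way apart for either gene. On the RPKM scale, which also divides by exon length, the ratio of SRP9 to SRP14 was 0.115 to 0.126 in shCtrl and 0.107 to 0.125 in shMORC2, so that the balance of the pair overlapped between the groups.

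Of the S domain, SRP19 (chr5:112861222-112869788), which helps the RNA fold so that SRP54 can bind, stood at 28.9, 29.3 and 29.4 CPM in shCtrl and at 45.3, 41.3 and 39.5 CPM in shMORC2. This was the widest difference of the 6 SRP protein genes, with a log2FC of 0.52 (SE 0.08), and 0.53 without the third shCtrl library. SRP19 shares exons with CTC-554D6.1 and CTC-487M23.8 on the same strand, and their counts (1196, 1176 and 1118 in shCtrl against 1819, 1563 and 1529 in shMORC2 for the first) ran close to its own, so the 3 genes cannot be told apart. SRP54 (chr14:34981957-35029567), the GTPase that binds the signal sequence, stood at 62.2, 57.2 and 58.4 CPM in shCtrl and at 72.4, 76.3 and 70.2 CPM in shMORC2. Its log2FC was 0.30 (SE 0.07), and 0.29 without that library.

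SRP68 and SRP72 form a dimer on the S domain and are the largest SRP proteins. SRP68 (chr17:76038775-76072653) stood at 146, 154 and 154 CPM in shCtrl and at 142, 156 and 158 CPM in shMORC2, with a log2FC of 0.0042 (SE 0.07). SRP72 (chr4:56466915-56503680) stood at 176, 157 and 171 CPM in shCtrl and at 165, 155 and 143 CPM in shMORC2, with a log2FC of -0.12 (SE 0.08). In both genes the groups overlapped. Without the third shCtrl library the log2FCs were 0.019 for SRP68 and -0.10 for SRP72.

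**Figure D4:**
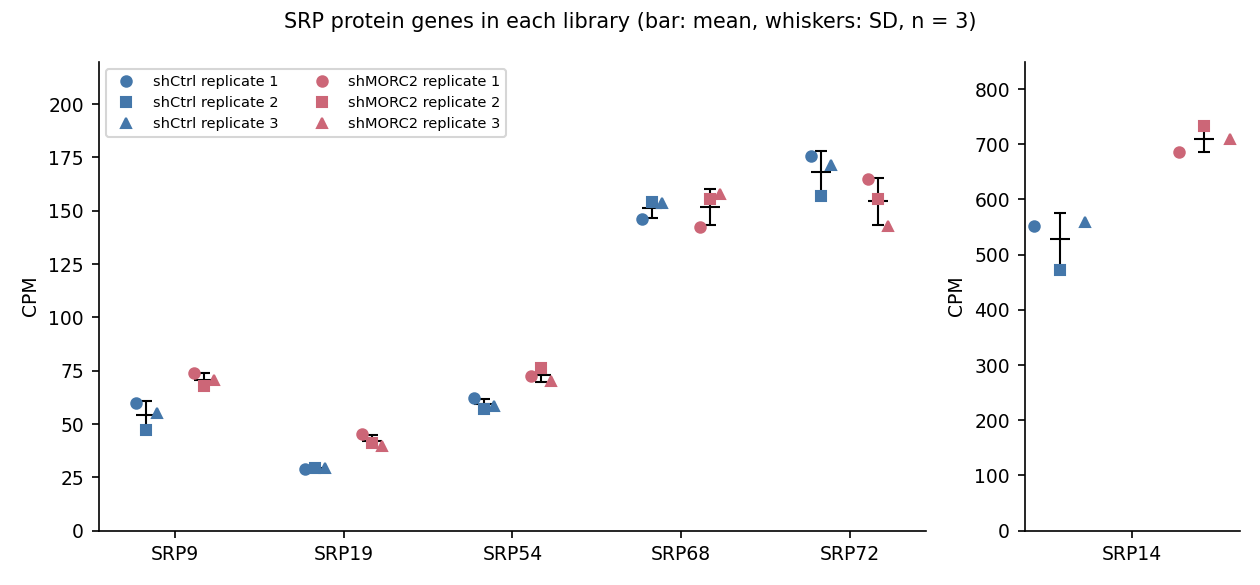
Level of the 6 SRP protein genes in CPM, with 1 point for each library of shCtrl and shMORC2, a bar at the mean and whiskers of 1 SD (n = 3), and SRP14 on an axis of its own. The points of SRP9, SRP14, SRP19 and SRP54 do not overlap between the groups, and those of SRP68 and SRP72 do.

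Per exon length, SRP14 was the most abundant of the 6 in every library, at 236 to 282 RPKM in shCtrl and 349 to 359 RPKM in shMORC2, and SRP19 the least, at 7.99 to 8.25 and 10.8 to 12.9 RPKM. In all 3 shCtrl libraries the order was SRP14, SRP72, SRP9, SRP68, SRP54 and SRP19. In all 3 shMORC2 libraries SRP9 (38.4 to 43.7 RPKM) came before SRP72 (30.1 to 35.8 RPKM), whereas in shCtrl SRP9 at 27.3 to 35.6 RPKM and SRP72 at 33.6 to 38.4 RPKM overlapped in range. SRP9P1, a processed copy of SRP9 named here after its values were seen, had 348, 230 and 267 counts in shCtrl and 529, 480 and 523 in shMORC2 (log2FC 0.85, SE 0.13, edgeR adjusted p = 0.000269), and reads of SRP9 and this copy could be exchanged. Of the 1449 splicing events that the authors listed, 0 were in the 9 members.

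The receptor that SRP docks on has 2 subunits. SRPRB, the membrane-anchored subunit, was lower in shMORC2, with 736, 632 and 728 counts in shCtrl and 547, 513 and 497 in shMORC2 (log2FC -0.44, SE 0.10, edgeR adjusted p = 0.00312). SRPRA, the subunit that pairs with SRP54, had 5004, 5033 and 5144 counts against 4492, 4659 and 4789, a log2FC of -0.14 that was not called (edgeR adjusted p = 0.170) but passed with the replicate block (adjusted p = 0.0495). Neither subunit overlapped between the groups, with shMORC2 on the lower side, as was found for 25.1% of all genes tested. Of the 2 genes, 1 was called lower (50% called, beside 39.5% of all genes tested). With the replicate block 2 were called lower, where 49% of all genes were called.

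Of the genes that act on the protein after docking, those of the channel and its partners were called in both directions. Of 12 genes of the Sec61 channel and its partners, 2 rose and 1 fell (25% called, beside 39.5% of all genes tested), with a median log2FC of 0.04. With the replicate block 3 rose and 3 fell, where 49% of all genes were called. SSR4, a subunit of the translocon-associated complex, rose from 2127, 2102 and 2351 counts to 3852, 3812 and 4258 (log2FC 0.84, SE 0.09, edgeR adjusted p = 1.08e-05), while SSR3 of the same complex fell (-0.29, SE 0.08, adjusted p = 0.00767). SEC61A1, the channel itself, had a log2FC of 0.20 (adjusted p = 0.0375), and leaving out any 1 of the 6 libraries ended its call (adjusted p from 0.0540 to 0.135). Leaving out the first shMORC2 library raised the number called to 5.

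Signal peptidase, which cuts off the signal sequence, had 4 of 5 genes higher and 0 lower, with a median log2FC of 0.62. This was 80% called, beside 39.5% of all genes tested. SPCS2 rose from 1641, 1228 and 1327 counts to 2912, 2347 and 3002 (log2FC 0.96, SE 0.11, edgeR adjusted p = 1.81e-05). SPCS1 rose by 0.81 on the log2 scale (SE 0.11, adjusted p = 0.000122), and the catalytic subunit SEC11A by 0.62 (SE 0.08, adjusted p = 6.59e-05). Of 11 genes tested of the oligosaccharyltransferase, which adds sugar chains in the endoplasmic reticulum, 4 rose and 0 fell, with a median of 0.20. The share called was 36.4%, no higher than the 39.5% of all genes tested. With the replicate block 6 rose and 1 fell, where 49% of all genes were called. MAGT1 (0.82, adjusted p = 1.63e-05), OST4 (0.51, adjusted p = 0.00160) and RPN2 (0.33, adjusted p = 0.00399) rose most among those called.

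Routes that insert membrane proteins without SRP, such as the GET pathway and the EMC complex, had 6 of 17 genes higher and 2 lower, with a median log2FC of 0.20. This was 47.1% called, beside 39.5% of all genes tested. The replicate block gave 10 higher and 3 lower, where 49% of all genes were called. TMEM208, a component of the SND route, rose from 946, 740 and 833 counts to 1746, 1501 and 1851 (19.8 ± 2.08 to 39.6 ± 3.71 CPM, SD, n = 3 each, edgeR adjusted p = 7.94e-06). The EMC subunits EMC7 (0.73, adjusted p = 2.28e-05) and EMC10 (0.68, adjusted p = 7.99e-05) also rose. GET4 (-0.58, adjusted p = 0.000122) and SGTA (-0.30, adjusted p = 0.00591), which hand tail-anchored proteins on in the cytosol, fell. Of the same pathway, ASNA1, the carrier of these proteins (0.40, adjusted p = 0.00300), and WRB, a part of its receptor (0.39, adjusted p = 0.00276), rose. These 2 lie outside the naming rule and were chosen after their values were seen.

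The enzyme that makes 7SL RNA changed in both directions. Of 11 genes of RNA polymerase III subunits, 3 rose and 3 fell (54.5% called, beside 39.5% of all genes tested), with a median log2FC of -0.04. POLR3E fell from 3898, 3722 and 3633 counts to 2588, 2433 and 2580 (log2FC -0.58, SE 0.07, edgeR adjusted p = 3.56e-05), and POLR3G (-0.48, adjusted p = 0.000575) and POLR3D (-0.39, adjusted p = 0.00722) also fell. POLR3K (0.47, adjusted p = 0.000534) and POLR3GL (0.31, adjusted p = 0.0105), the paralog of POLR3G, rose. The call of POLR3GL was lost without the second shMORC2 library (0.26, adjusted p = 0.0587).

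Of 11 genes of the factors that place polymerase III on its genes and of La, which binds its new transcripts, 1 rose and 2 fell, with a median log2FC of 0.06. The share called was 27.3%, beside 39.5% of all genes tested. With the replicate block 3 rose and 4 fell, where 49% of all genes were called. BDP1, a subunit of the initiation factor TFIIIB, had 6588, 4959 and 4432 counts in shCtrl and 4054, 2719 and 2411 in shMORC2, a log2FC of -0.81 (SE 0.16 and, by edgeR, adjusted p = 0.00113). GTF3C6, a subunit of TFIIIC, rose by 0.68 (SE 0.11, adjusted p = 0.000447). GTF3C4 was called at -0.22 (adjusted p = 0.0367), and leaving out any 1 library ended that call (adjusted p from 0.0621 to 0.101).

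**Figure D5:**
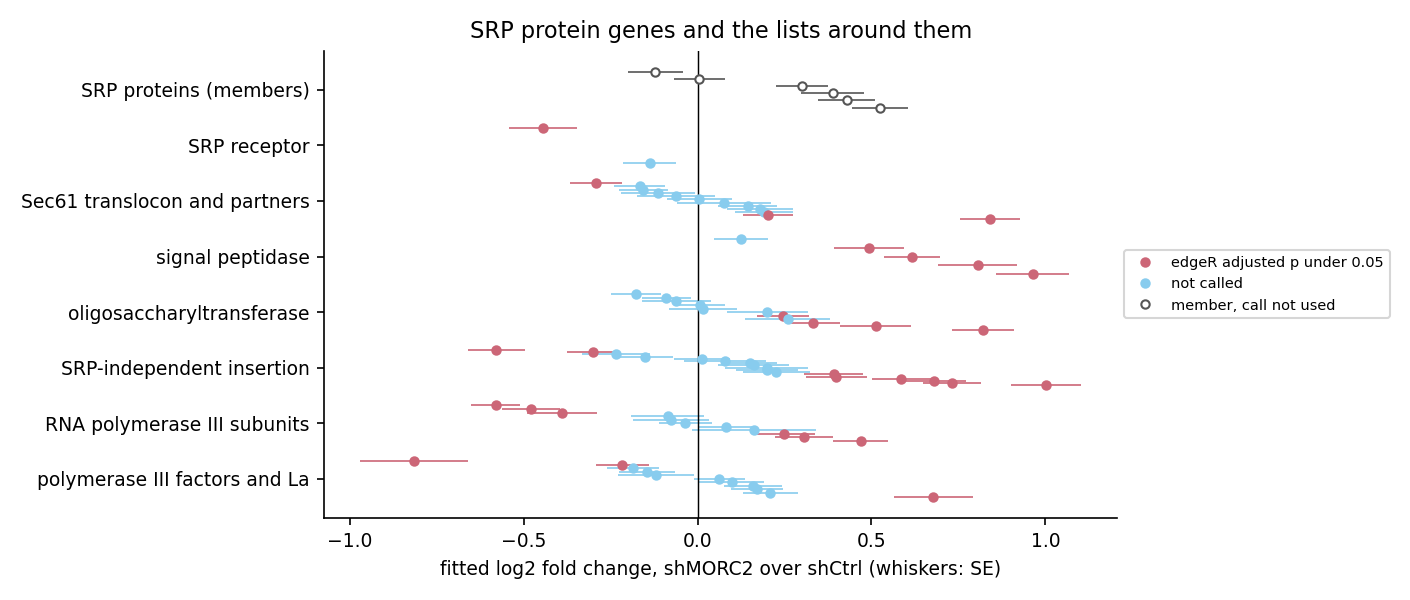
Fitted log2FC, shMORC2 over shCtrl, with its SE, for each SRP protein gene (open points) and each tested gene of the lists around SRP, coloured by whether edgeR called it. Signal peptidase genes lie to the right of 0, while polymerase III subunits lie on both sides.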

How the data were processed

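RNA was sequenced from 3 shCtrl and 3 shMORC2 libraries of SW480 cells, made with a stranded mRNA kit that adds molecular identifiers. The authors deposited raw counts per gene and RPKM values, and the submitters' processing notes name Trimmomatic 0.36, STAR 2.5.3a, featureCounts of Subread 1.5.1, edgeR 3.12.1 and GRCh38. The strand setting, the treatment of reads with several matches and the collapsing of identifiers were not given in the sources used here. Reads shared by near-identical copies may therefore be lost, repeated or split. The authors also deposited a list of splicing events with inclusion levels, p-values and differences, of which only gene names and event types were used. Of the columns, 0 belonged to samples of another series.

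The members and gene lists were chosen with earlier results of these data known, so members carry no test. Genes named were MORC2, the 9 members, the 5 other RN7SL copies with the highest mean count, each tested RNA of the polymerase III list, up to 3 called genes in each direction with a mean of at least 100 counts in each other list, and the 5 genes most like RN7SL1 by Pearson correlation of log2(CPM + 0.5).

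Counts were fitted in R 4.3.3 with edgeR 4.0.16 (low counts removed by filterByExpr, TMM, quasi-likelihood test, group as the only term, Benjamini-Hochberg adjustment, threshold 0.05). SEs were taken from the log2 fold change and the square root of edgeR's F. The alternatives were DESeq2 1.42.0, no TMM, 2 filters (any count above 0, or a mean of at least 10), the replicate number as a block, limma 3.58.1 on log2 RPKM (pseudocount 1 or 0.1) where the mean RPKM reached 1, and the omission of each library in turn. The fits were tested on simulated data. Deviations from the group means of libraries with the same number correlated at 0.333, 0.165 and 0.149. For libraries with different numbers the correlations ran from -0.255 to 0.121. The numbers were taken as pairing the libraries on these values alone, and only the fit with the block used that pairing. No 2 libraries of a group agreed within sampling noise (chi-square per degree of freedom 6.80 to 23.8). Sequences were read from GRCh38 at the coordinates of the count table and aligned with Biopython 1.88, and promoters came from RefSeq. Of 33560 genes with 1 entry in GENCODE v44, 99.86% overlapped it. For RN7SL1 the second of 2 listed starts was used. Some genes that the naming rule gives and some sequences are not reported here.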

Additional observations from a re-analysis of the deposited data

How the results depend on the processing

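Up to 13 alternative settings were run for each result, with 9 for the summed 7SL level and 12 for RN7SK and RNU6ATAC. Without the third shCtrl library, the summed log2 ratio of RN7SL1, RN7SL2 and RN7SL4P moved from -2.65 to -1.51 (range over left-out libraries -3.00 to -1.51), and RN7SK reversed to 0.33 (range -4.35 to 0.33). The number called among other RN7SL copies, 2 of 9 in the report, was 4 of 9 with the replicate block and 1 to 2 with a library left out. Over 198 copies with a count it was 1 with DESeq2 and 6 with no filter. The replicate block raised the calls to 2 in the SRP receptor, 6 in the Sec61 list, 7 in the oligosaccharyltransferase, 13 in SRP-independent insertion and 7 in polymerase III factors. Apart from these lists and the other RN7SL copies, it moved no list past 1.5 times. Leaving out a library gave 2 to 5 calls in the Sec61 list. limma called 5 of 8 other polymerase III RNAs with either pseudocount. The causes were not tested. The number of all genes called was 8301, 10287 with the block and 6268 to 8433 with a library left out, and MORC2 ran from -0.74 to -0.55. Of the values of lists, sums and the comparison as a whole, 138 stayed within 1.5 times or the replicate spread and 14 did not, and of those of single tested genes 396 kept direction and side of the threshold, 35 lost a call, 8 gained one and 1 reversed. For the 9 members, which carry no test, 114 values moved by less than the replicate spread and 3 by more. Counts of RN7SL copies other than the 4 shown are low, and 3 libraries a group limit the precision of every value.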
